A study of Mus musculus with 60 samples.

Results

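RNA was measured in POLE4-dTAG mESCs of the MCM2-2A line treated with dTAG (dPOLE4 MCM2-2A cells), and the 3 libraries taken at 60 h of RA were compared with the 3 taken at 24 h. These are 6 of the 60 samples of the series, picked out by their labels. The comparison itself was chosen with earlier results of these data known. The cells are E14JU mouse embryonic stem cells that carry a degron tag on Pole4 and the 2A mutation of Mcm2, which weakens the binding of MCM2 to histones. They were kept in serum and LIF, received 1 µM dTAG for 24 h and were then moved to medium with RA and without LIF. The question was how gene expression goes on changing late in differentiation when both routes of histone recycling are disabled. The same time points of 3 other cell groups were used for comparison, each with 3 libraries per time: Ctrl MCM2-2A cells, which are the same line with DMSO in place of dTAG, dPOLE4 cells, which are dTAG-treated POLE4-dTAG cells with normal Mcm2, and Ctrl cells, the latter with DMSO. Whether dTAG was kept in the medium during RA is not given in the sources used here. The labels name a single clone of the MCM2-2A line, so that the Mcm2 genotype and the clone cannot be told apart in any comparison with dPOLE4 or Ctrl cells.

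At the replication fork, old histones are passed to both new DNA strands. MCM2, a subunit of the replicative helicase, carries histones toward the lagging strand, and POLE4, a small subunit of DNA polymerase epsilon, takes part in their transfer to the leading strand. RA binds nuclear receptors that act on the DNA as dimers, switches on Hox genes and their cofactors, and drives embryonic stem cells out of pluripotency toward mixed fates, neural, mesodermal and endodermal among them. During that exit, the naive network around Oct4 (the product of Pou5f1), Nanog and the Klf factors is shut down.

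Each library was given as reads for 55487 genes and for 1146 subfamilies of repeats (by name 157 of LINE type, 683 of LTR type and 306 others), together called features. The paper counts more LTR elements than were found here by name. The others may therefore hold part of that class, and LTR values below may cover only a part of it. Total counts lay between 14605305 and 25217581 in the 6 libraries. Levels are given as CPM (counts per 1000000 counts of the library, after TMM scaling) with the mean ± SD of 3 libraries. A pair of libraries stood apart from the other replicates of their group. At 60 h, the spread over features against counting noise (chi-square per degree of freedom) was 7.91 between replicates 1 and 2 and 23.1 and 26.3 between replicate 3 and these. At 24 h it was 6.65 between replicates 1 and 3 and 14.9 and 23.7 between replicate 2 and these. The share of counts on the mitochondrial genome was 2.60, 1.38 and 2.91% at 24 h and 0.788, 0.675 and 1.84% at 60 h, so that the same libraries also differed there. Pole4 mRNA went from 24.6 ± 1.38 to 19.5 ± 1.63 CPM and Mcm2 mRNA from 217 ± 8.84 to 168 ± 14.5 CPM, and neither passed the rule for a change (adjusted p = 0.0187 and 0.00337 in edgeR's test). The degron removes protein, so that mRNA does not check the depletion of POLE4.

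Between 24 and 60 h of RA, 2876 features rose and 1859 fell among the 18729 tested, which is 15.4% and 9.93%. Calls needed an adjusted p under 0.01 in edgeR's quasi-likelihood test and a log2 fold change above 0.58 or below -0.58. The median log2 fold change of all tested features was -0.01. Without replicate 3 of 60 h, 2887 rose and 2017 fell, and without replicate 2 of 24 h, 2823 rose and 1862 fell.

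Among the 10 largest rises were genes for actins and matrix proteins. Acta2, smooth muscle actin, was at 0.737, 0.971 and 1.34 CPM at 24 h and 78.8, 101 and 85.7 CPM at 60 h (log2 fold change 6.42 ± 0.18, adjusted p = 1.76e-09). Ccdc80, which encodes a secreted matrix protein, was at 0.173, 0 and 0.0745 CPM at 24 h and 14, 12.9 and 16.0 CPM at 60 h (log2 fold change 7.20 ± 0.31, adjusted p = 2.24e-08). In both genes every 60 h library lay far above every 24 h library. Col3a1, a fibrillar collagen, rose from 0.199 ± 0.119 to 10.7 ± 1.42 CPM (log2 fold change 5.81). Actc1, the actin of heart muscle, rose from 0.104 ± 0.0601 to 6.37 ± 1.07 CPM (5.83), Pcdh7, a protocadherin, from 0.131 ± 0.0778 to 12.8 ± 1.99 CPM (6.49), and Dkk2, a secreted modulator of Wnt signalling, from 0.0538 ± 0.0469 to 3.24 ± 0.302 CPM (5.61). The other members of the 10 largest rises were almost silent at 24 h, with 1 to 3 counts in all. The growth factor gene Igf1 had 2 counts in the 3 libraries of 24 h and 116 at 60 h, a ratio of 63.4 (95% counting interval 17.1 to 529). Ttr, a transport protein made by visceral endoderm and liver, had 3 and 159 counts (57.9, 19.5 to 284). Isx, an intestinal homeobox gene, had 1 and 65 counts (71.0, 12.3 to 2847), and Ugt2b34, a glucuronosyltransferase, had 1 and 68 (74.3, 12.9 to 2977). These intervals cover counting error only.

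Lefty1, an inhibitor of Nodal signalling that is high in pluripotent cells, had one of the 10 largest falls and was at 180.1, 200.4 and 181 CPM at 24 h and 18.1, 16.4 and 10.5 CPM at 60 h (log2 fold change -3.64 ± 0.16, adjusted p = 2.51e-08). Car6, a secreted carbonic anhydrase, was at 2.30, 2.59 and 2.61 CPM at 24 h and 0.104, 0.159 and 0.276 CPM at 60 h (log2 fold change -3.72 ± 0.33, adjusted p = 3.82e-06). Neither gene's groups overlapped. Chrna9, a subunit of the nicotinic acetylcholine receptor, fell from 1.77 ± 0.412 to 0.149 ± 0.0397 CPM (-3.53) and Atp1a4, a sodium pump subunit known from sperm, from 2.73 ± 1.01 to 0.236 ± 0.112 CPM (-3.46). The noncoding Kis2, on chromosome X, fell from 5.51 ± 0.555 to 0.513 ± 0.233 CPM (-3.42), Gm13016 from 1.08 ± 0.142 to 0.0981 ± 0.0855 CPM (-3.34) and Gm2762 from 4.68 ± 0.791 to 0.497 ± 0.0906 CPM (-3.22). 4930512J16Rik had 78 counts at 24 h and 3 at 60 h, a ratio of 23.8 in favour of 24 h (95% counting interval 7.85 to 118). Gm10800 fell from 1.62 ± 1.64 to 0.146 ± 0.127 CPM (-3.48), but its call was lost in 3 of the alternative settings. The last member of this group was mt-Tf, a transfer RNA of the mitochondrial genome, which fell from 3.55 ± 1.26 to 0.144 ± 0.117 CPM (-4.53). In bulk RNA, fewer cells of a type and less RNA per cell cannot be told apart, here and for every gene below.

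**Figure D1:**
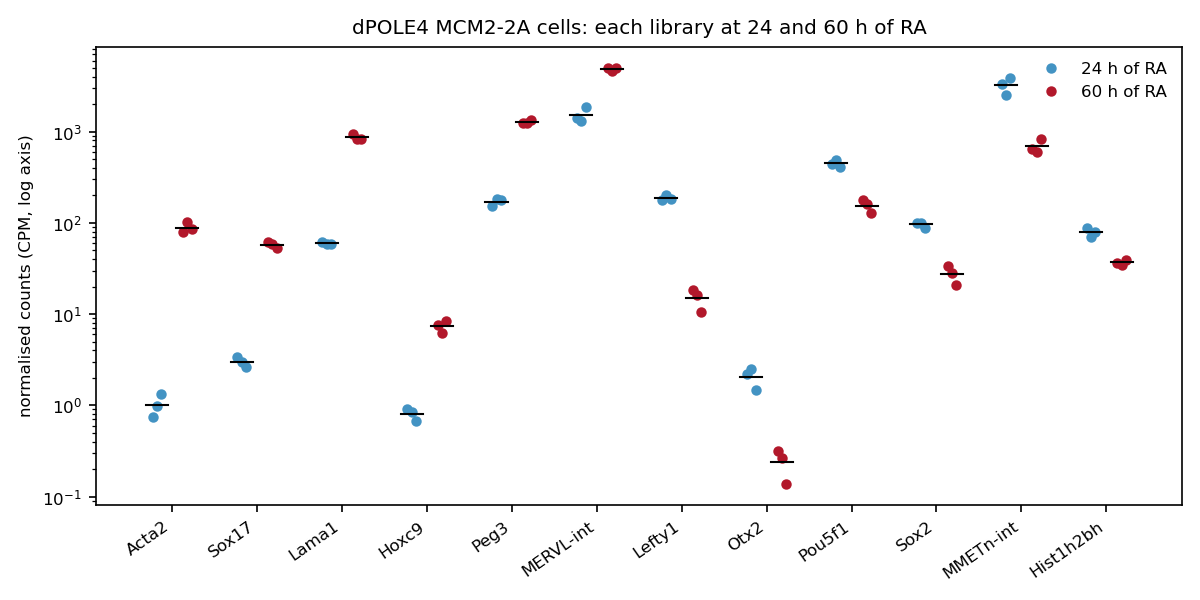
Normalised counts (CPM, log axis) of 12 features in each of the 3 libraries at 24 h (blue) and the 3 at 60 h of RA (red) of dPOLE4 MCM2-2A cells, with a black line at the mean of each group. The 24 h and 60 h libraries do not overlap for any of the 12: Acta2, Sox17, Lama1, Hoxc9, Peg3 and MERVL-int lie higher at 60 h, and Lefty1, Otx2, Pou5f1, Sox2, MMETn-int and Hist1h2bh lower.

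Most pluripotency genes fell, and Pou5f1, Nanog and Sox2 were still well above 0 at 60 h. Of the 13 naive and self-renewal genes, a set that the study chose with these samples in hand and that is therefore no independent evidence of direction, 7 fell, 2 rose and 4 were not called, with a median log2 fold change of -0.93. Pou5f1, which encodes Oct4, was at 441, 494 and 408 CPM at 24 h and 176, 159 and 128 CPM at 60 h (log2 fold change -1.53 ± 0.12, adjusted p = 1.14e-06). Nanog was at 273, 203 and 227 CPM at 24 h and 119, 104 and 99.8 CPM at 60 h (log2 fold change -1.12 ± 0.11, adjusted p = 6.95e-06). Sox2, the partner of Oct4, was at 101, 100.2 and 87.6 CPM at 24 h and 33.6, 27.9 and 21.1 CPM at 60 h (log2 fold change -1.80 ± 0.14, adjusted p = 1.33e-06). All 3 were lower in every 60 h library than in any 24 h library. Pecam1, an adhesion molecule of naive cells, fell by 2.12 on the log2 scale, Zfp42 (Rex1) by 1.2 and Klf2 by 1.07.

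Of the naive genes without a call, 4 in all, all were close to level or lay lower. Nr5a2 missed a call only by the size of its fall. Klf4 was at 69.4, 68.9 and 63.0 CPM at 24 h and 71.6, 65.1 and 63.3 CPM at 60 h (adjusted p = 0.986), and its groups overlapped. Dppa3 (Stella), a factor that guards DNA from demethylation in the zygote, had a log2 fold change of -0.04 (adjusted p = 0.887), the transcription factor gene Tfcp2l1 one of -0.26 (adjusted p = 0.0741) and the orphan receptor gene Nr5a2 one of -0.45 (adjusted p = 0.00448). Pramel7, which promotes the naive state through the loss of UHRF1, was at 3.90, 3.63 and 5.81 CPM at 24 h and 9.80, 8.20 and 9.52 CPM at 60 h (log2 fold change 1.03 ± 0.18, adjusted p = 6.60e-04). Pramel6, a close relative, was at 2.86, 2.78 and 3.8 CPM at 24 h and 6.36, 6.24 and 6.49 CPM at 60 h (log2 fold change 1.00 ± 0.16, adjusted p = 3.71e-04). Both rose from 24 to 60 h. They belong to a multigene family whose members can share reads, and how such reads were split among them was not tested.

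A further 26 pluripotency genes gave 16 that fell, 1 that rose and 9 without a call (median -0.81). Besides Lefty1, its relative Lefty2 fell from 151 ± 8.43 to 34.8 ± 9.61 CPM (-2.11) and Tdgf1, the Nodal coreceptor Cripto, from 153 ± 8.88 to 31.1 ± 5.04 CPM (-2.29). Fgf4, the main autocrine FGF of stem cells, fell from 38.0 ± 6.95 to 8.38 ± 2.53 CPM (-2.18) and Utf1, a chromatin factor of stem cells, from 130.3 ± 8.36 to 31.4 ± 6.8 CPM (-2.05). Mycn was the member that rose, from 10.1 ± 2.19 to 41.6 ± 3.66 CPM (2.06). Of the 5 tested genes that the study names for the early response to RA, again chosen on these samples, Sox1 fell by 2.46 beside Lefty1 and Lefty2, and Sox3 was at -0.25 (adjusted p = 0.333) (median of the list -2.11).

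Formative genes, which mark the step between naive and primed pluripotency, split into 4 that rose and 4 that fell among 9 (median 0.40). All but Zic5 come from a set of the study. Lef1, a transcription factor of the Wnt pathway, was at 1.34, 2.59 and 1.83 CPM at 24 h and 13.1, 15.5 and 14 CPM at 60 h (log2 fold change 2.93 ± 0.19, adjusted p = 3.99e-07). Krt18, a keratin of simple epithelia, rose from 158 ± 15.1 to 1287 ± 172 CPM (3.03), Sox4 from 65.6 ± 3.40 to 227 ± 20.9 CPM (1.80) and Foxd2 from 0.373 ± 0.0690 to 0.971 ± 0.139 CPM (1.39), whose call was lost in 5 alternative settings. Otx2, the homeobox gene that leads cells into the formative state, was at 2.21, 2.53 and 1.45 CPM at 24 h and 0.313, 0.265 and 0.138 CPM at 60 h (log2 fold change -3.07 ± 0.38, adjusted p = 4.65e-05). Its groups were far apart, at levels that were already low at 24 h. Zic5 fell by 1.42, Zic2 by 0.97 and Pou3f1 (Oct6) by 0.91, and Fgf5 was at 0.40 (adjusted p = 0.393).

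Hox genes specify position along the body axis and are induced by RA in the order of their paralog numbers. Among the 35 tested of 39, 17 rose, 1 fell and 17 were not called (median 0.79). The rise lay in 2 of the 4 clusters. All 7 tested Hoxc genes and all 7 tested Hoxd genes rose, against 2 of 11 Hoxa genes and 1 of 10 Hoxb genes. The median log2 fold changes were 1.67 for Hoxc, 2.51 for Hoxd, 0.21 for Hoxa and -0.04 for Hoxb. Hoxd3 (on the plus strand at chr2:74711927-74748442, mm10) was at 0.0867, 0.259 and 0.0745 CPM at 24 h and 1.88, 1.96 and 1.61 CPM at 60 h (log2 fold change 3.82 ± 0.40, adjusted p = 1.29e-05). Hoxc9 (plus strand, chr15:102976439-102985099) was at 0.911, 0.842 and 0.671 CPM at 24 h and 7.51, 6.14 and 8.37 CPM at 60 h (log2 fold change 3.20 ± 0.21, adjusted p = 3.59e-07). Their 24 h and 60 h libraries did not overlap.

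Hoxc8 (chr15:102990607-102994111) rose from 0.689 ± 0.189 to 4.59 ± 0.844 CPM (2.79), Hoxd11 (chr2:74679557-74687016) from 0.161 ± 0.141 to 1.15 ± 0.178 CPM (2.62), Hoxd4 (chr2:74711929-74729160) from 0.715 ± 0.0662 to 4.28 ± 0.0848 CPM (2.57) and Hoxd9 (chr2:74697727-74700208) from 0.778 ± 0.0414 to 4.44 ± 0.287 CPM (2.51). Within a cluster, annotated transcripts overlap on the same strand: those of Hoxd3 and Hoxd4 share their first part, and the annotation of Hoxc5 spans Hoxc8 and Hoxc9. The counts of such neighbours may therefore share a source. Hoxa4, which fell by 0.80, also overlaps the annotation of Hoxa3. Hoxb1, an early gene of the RA response, was at -0.14, without a call. Hoxc11, Hoxc12, Hoxd10 and Hoxd12 had between 6 and 27 counts in 3 libraries and were not tested.

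Promoters were sought for the Hox genes of largest rise, and Hoxc9 and Hoxc8 had none that matched by symbol. Their promoters are therefore not shown. For the 4 Hoxd genes of largest rise, the 250 bases before each transcription start are shown. These bases are from the plus strand of chromosome 2 and were taken from RefSeq (GRCm38.p6). Capitals mark the core motif of the retinoic acid receptor, AGGTCA or its reverse complement TGACCT. They cover chr2:74711743-74711992 for Hoxd3, chr2:74721728-74721977 for Hoxd4, chr2:74697513-74697762 for Hoxd9, and chr2:74679308-74679557 and chr2:74682073-74682322 for the 2 starts of Hoxd11, the first and the second below.
Hoxd3: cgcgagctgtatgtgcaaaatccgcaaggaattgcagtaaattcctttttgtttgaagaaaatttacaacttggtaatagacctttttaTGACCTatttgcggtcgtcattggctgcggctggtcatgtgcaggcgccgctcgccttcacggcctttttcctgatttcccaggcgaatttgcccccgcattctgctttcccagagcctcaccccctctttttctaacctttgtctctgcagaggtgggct
Hoxd4: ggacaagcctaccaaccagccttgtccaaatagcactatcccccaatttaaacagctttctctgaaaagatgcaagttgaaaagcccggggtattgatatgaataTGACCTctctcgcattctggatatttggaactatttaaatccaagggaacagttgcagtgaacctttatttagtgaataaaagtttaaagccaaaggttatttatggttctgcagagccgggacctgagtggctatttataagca
Hoxd9: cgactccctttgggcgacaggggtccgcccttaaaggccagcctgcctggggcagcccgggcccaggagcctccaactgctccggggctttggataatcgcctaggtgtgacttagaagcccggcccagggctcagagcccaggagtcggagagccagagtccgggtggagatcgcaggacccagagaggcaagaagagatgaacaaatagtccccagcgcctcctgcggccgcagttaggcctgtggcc
Hoxd11, first start: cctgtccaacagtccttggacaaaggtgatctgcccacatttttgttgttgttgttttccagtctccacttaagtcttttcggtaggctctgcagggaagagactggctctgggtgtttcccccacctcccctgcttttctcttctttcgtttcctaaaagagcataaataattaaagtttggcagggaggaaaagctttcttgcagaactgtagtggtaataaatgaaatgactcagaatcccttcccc
Hoxd11, second start: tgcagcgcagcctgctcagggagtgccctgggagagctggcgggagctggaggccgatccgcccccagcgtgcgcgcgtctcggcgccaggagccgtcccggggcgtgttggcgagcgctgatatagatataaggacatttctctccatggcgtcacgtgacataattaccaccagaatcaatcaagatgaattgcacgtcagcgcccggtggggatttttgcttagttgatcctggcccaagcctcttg
The windows of Hoxd3 and Hoxd4 hold 1 core motif each, read on the minus strand, and those of Hoxd9 and Hoxd11 hold none. In windows from 250 bases before to 50 after the start, the core motif on either strand was in 7 of the 24 Hox promoters in the table (29.2%), and in 5340 of all 32851 promoters (16.3%). Full response elements, AGGTCA repeated with 1, 2 or 5 letters between, were in 0 of the 24 Hox promoters, and were in 13, 3 and 3 of all promoters. A match of these letters is a description of the sequence, not of binding.

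**Figure D2:**
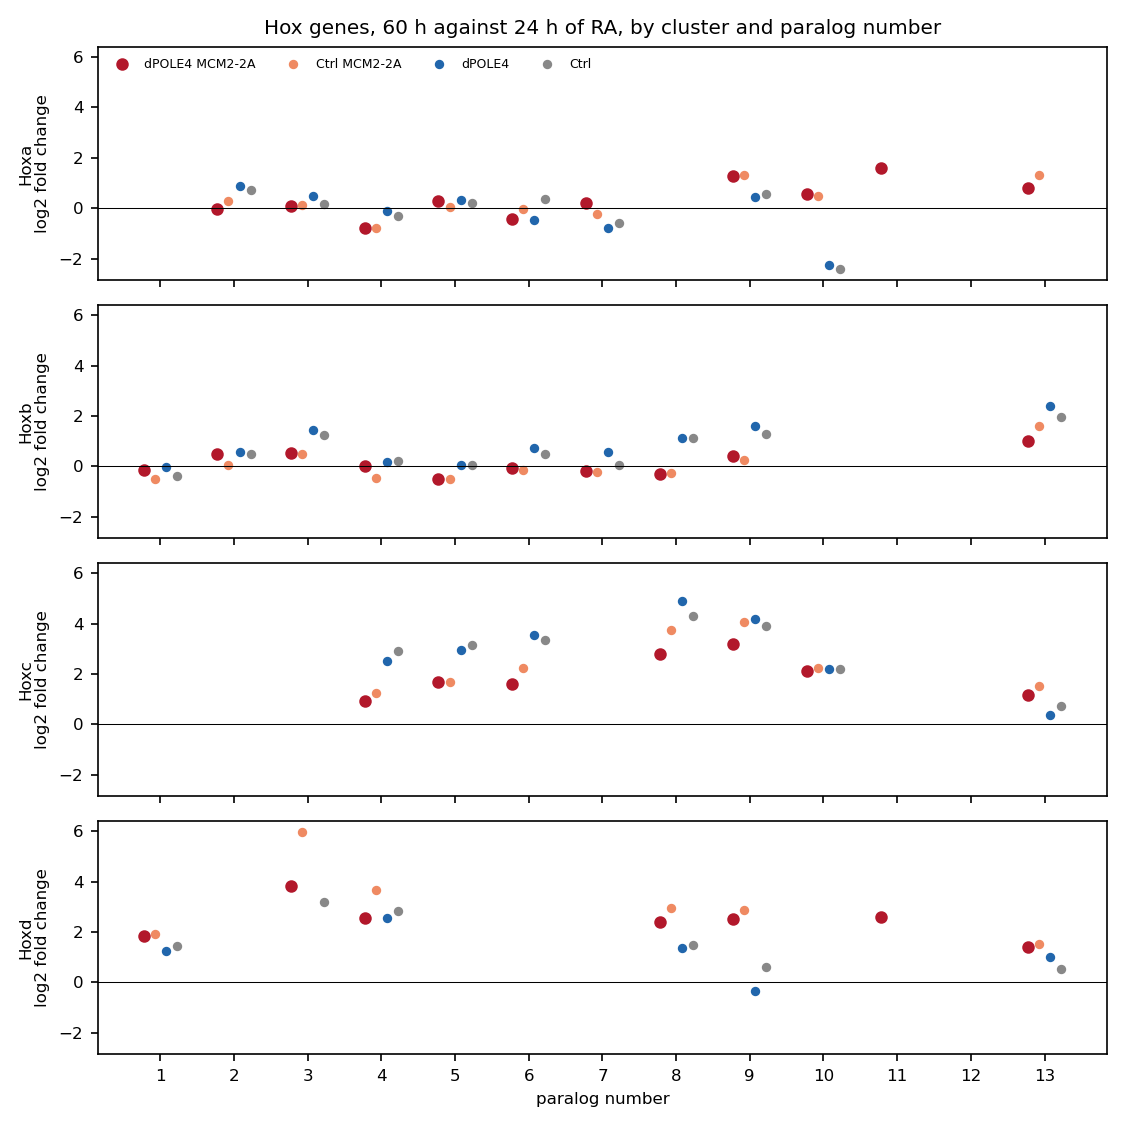
Log2 fold change from 24 to 60 h of RA (vertical axis) of the tested Hox genes reported here by paralog number (horizontal axis), with 1 panel per cluster. Large red points are dPOLE4 MCM2-2A cells, orange Ctrl MCM2-2A, blue dPOLE4 and grey Ctrl cells. In dPOLE4 MCM2-2A cells the Hoxc and Hoxd genes lie above 0 while the Hoxa and Hoxb genes scatter around it, and from Hoxc4 to Hoxc8 the red points lie below the blue and grey ones.

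Several genes of RA signalling and metabolism rose. Of 23 tested genes for RA receptors, binding proteins and enzymes, 8 rose, 2 fell and 13 were not called (median 0.27). Aldh1a1, an enzyme that makes RA, was at 0.0867, 0.0647 and 0.0373 CPM at 24 h and 0.574, 0.582 and 0.690 CPM at 60 h (log2 fold change 3.22 ± 0.50, adjusted p = 2.64e-04), without overlap. Rdh10, which makes the precursor retinal, rose by 1.57, and Cyp26b1 and Cyp26a1, which break RA down, rose by 1.76 and 0.77. Among the receptors Rarb rose by 1.21 and Rxra by 1.14, and Rarg fell by 0.71. Of the binding proteins Crabp2 rose by 0.93 and Crabp1 fell by 1.17. Of 11 TALE homeobox genes, whose products bind DNA together with Hox proteins, 4 rose and 7 were not called (median -0.02). Those that rose included Meis1, from 13.4 ± 1.62 to 50.5 ± 2.31 CPM (1.92), Meis3 (1.2) and Meis2 (0.86).

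Endoderm genes showed the broadest rise among the lineage lists. Of 31 tested of 34, 25 rose, 1 fell and 5 were not called, with a median of 1.93, and the summed level of the list went from 1491 to 1658 CPM in the 24 h libraries to 7448 to 7937 CPM in the 60 h libraries. Sox17, a master regulator of endoderm, was at 3.43, 2.98 and 2.61 CPM at 24 h and 61.8, 58.2 and 52.6 CPM at 60 h (log2 fold change 4.27 ± 0.12, adjusted p = 1.76e-09). Lama1, the laminin chain of the basement membrane under extraembryonic endoderm, was at 62.0, 59.0 and 58.6 CPM at 24 h and 930.1, 839.8 and 825 CPM at 60 h (log2 fold change 3.86 ± 0.08, adjusted p = 4.81e-10). The replicates of each group lay close together, and the groups were far apart. Cubn, an endocytic receptor of visceral endoderm, rose from 11.8 ± 1.99 to 155 ± 2.29 CPM (3.70), and the neighbouring collagen IV genes Col4a1 and Col4a2, which share a promoter region, rose by 3.24 and 3.35. Of the fixed markers, Gata4 rose by 2.09, Gata6 by 1.55 and Dab2 by 2.69. Apob, a lipoprotein gene of mature visceral endoderm, was the member that fell (-0.97). Cer1 had 0 counts in all 6 libraries, which allows up to 3 counts per group, and the serum protein genes Afp and Apoa1 had at most 24 counts in 3 libraries and were not tested.

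Of 25 adhesion and epithelial-mesenchymal genes, 18 rose and 7 were not called (median 1.25). Keratins of simple epithelia were among the largest, with Krt19 from 24.6 ± 0.674 to 221 ± 19.4 CPM (3.17) and Krt8 from 158 ± 5.48 to 1268 ± 146 CPM (3.01). N-cadherin (Cdh2) rose from 4.26 ± 0.655 to 30.2 ± 2.37 CPM (2.84), Cdh6 by 2.32 and Cdh11 by 1.92. Of 18 surface ectoderm and trophoblast genes, 10 rose and 8 were not called (median 0.70). Wnt6 rose from 4.92 ± 1.41 to 52.4 ± 7.78 CPM (3.46), Trp63, the p53 relative that governs stratified epithelium, from 0.230 ± 0.0880 to 2.36 ± 0.563 CPM (3.43), Gata3 by 2.22, Krt7 by 2.2, and the X-linked placental genes Esx1 and Plac1 by 2.09 and 1.95. Of its markers, Krt14 and Krt5 rose by 1.80 and 0.63, and Elf5 was at 0.77 (adjusted p = 0.0846).

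Neural genes moved in both directions. Of 38 tested of 49, 15 rose, 7 fell and 16 were not called (median 0.87). Lhx1, a LIM homeobox gene, was at 0.737, 1.17 and 0.708 CPM at 24 h and 10.5, 8.41 and 10.5 CPM at 60 h (log2 fold change 3.55 ± 0.21, adjusted p = 1.65e-07). Nes, the intermediate filament nestin of progenitors, was at 29.9, 37.0 and 29.4 CPM at 24 h and 153, 161 and 148 CPM at 60 h (log2 fold change 2.27 ± 0.10, adjusted p = 2.59e-08). Both were higher in every 60 h library. Dcx, which binds microtubules in young neurons, rose from 0.183 ± 0.0478 to 1.52 ± 0.128 CPM (3.02), Zic1 by 2.84 and Nkx6-1 by 2.19. Sox1, the earliest marker of neural precursors, was at 6.03, 7.90 and 6.08 CPM at 24 h and 1.56, 0.952 and 1.06 CPM at 60 h (log2 fold change -2.46 ± 0.22, adjusted p = 3.72e-06). Olig3 fell from 0.760 ± 0.0751 to 0.103 ± 0.0564 CPM (-2.83), and the neuronal RNA-binding protein genes Elavl4 and Elavl3 fell by 2.10 and 1.61. Genes of the neuronal cytoskeleton were lower too, Ina by 1.72, Stmn2 by 1.70 and Tubb3 by 0.82. Pax6 was at 0.28 (adjusted p = 0.384). The 11 members below the filter had between 0 and 33 counts in 3 libraries. Among 17 tested Notch pathway genes, 2 rose and 2 fell (median 0.24). Each share is 11.8%, near the 15.4% risen and 9.93% fallen of all tested features. Only the fall of the ligand gene Dll3 (-1.36) kept its call in all alternatives, those of Maml2 (1.34), Hes1 (0.59) and Rbpj (-0.63) being lost in at least 1.

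Of 23 tested of 28 mesoderm and primitive streak genes, 11 rose, 2 fell and 10 were not called (median 0.66). Hand2, a factor of heart and limb mesoderm, rose from 0.251 ± 0.123 to 2.05 ± 0.444 CPM (3.12), Kdr, the VEGF receptor of blood and vessel precursors, from 0.481 ± 0.113 to 2.07 ± 0.124 CPM (2.08), and Foxc2 from 2.22 ± 0.567 to 8.03 ± 0.696 CPM (1.86). Snai2, a repressor of epithelial genes, rose by 1.42 and Wnt3 by 1.35. The streak genes Wnt3a and Cdx1 fell by 1.25 and 0.92. The markers T and Mixl1 were at 0.38 (adjusted p = 0.266) and -0.49 (adjusted p = 0.124), and Mesp1 had 12 and 7 counts and was not tested.

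Of 46 tested genes of the Wnt, FGF, BMP and Hedgehog pathways, 23 rose, 8 fell and 15 were not called (median 0.61). Among the ligands, Bmp2 rose from 0.926 ± 0.201 to 7.75 ± 0.474 CPM (3.04) and Wnt7a from 0.665 ± 0.0414 to 4.21 ± 1.05 CPM (2.67). Of Wnt target and feedback genes, Dkk1, a secreted Wnt inhibitor, was at 1.91, 3.17 and 3.13 CPM at 24 h and 19.9, 20.7 and 23.5 CPM at 60 h (log2 fold change 2.98 ± 0.18, adjusted p = 1.69e-07). Sp5, a direct target of beta-catenin, was at 0.997, 1.10 and 1.04 CPM at 24 h and 7.46, 6.88 and 6.63 CPM at 60 h (log2 fold change 2.74 ± 0.17, adjusted p = 2.60e-07). Neither gene's groups overlapped. The receptor gene Fzd2 rose by 1.88. The genes that fell with the largest log2 fold changes were of the FGF and Hedgehog pathways: besides Fgf4, these were the FGF ligand gene Fgf15 (-2.29), the FGF feedback inhibitor Spry4 (-2.03), the FGF target Etv4 (-1.60), and the Hedgehog targets Gli1 (-1.96) and Ptch1 (-1.72).

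**Figure D3:**
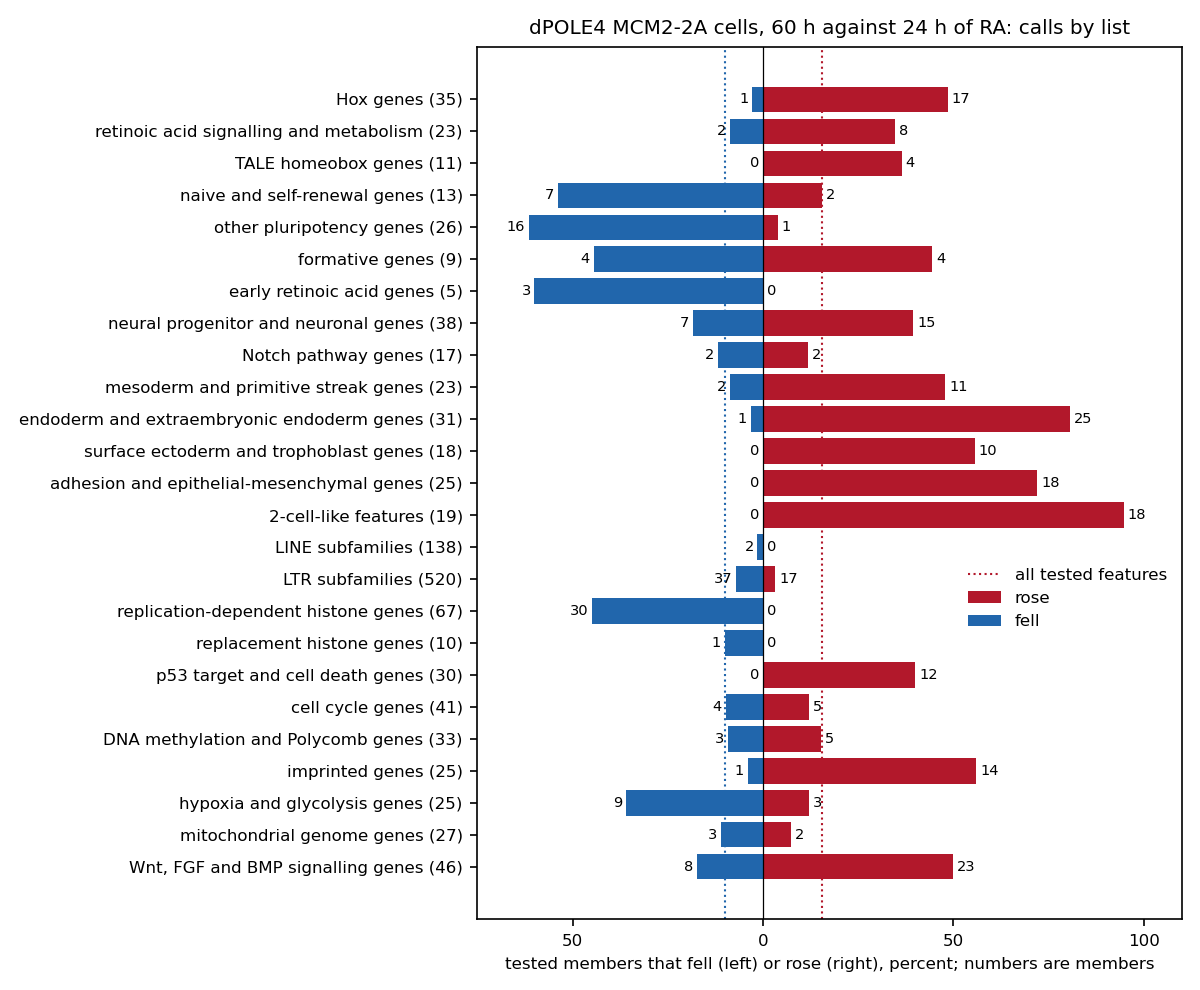
Share of the tested members of each gene list that rose (red, to the right) or fell (blue, to the left) from 24 to 60 h of RA in dPOLE4 MCM2-2A cells, in percent, with the number of members beside each bar and the number tested in brackets. Dotted lines mark the shares of all tested features, 15.4% risen and 9.93% fallen. The bars of the 2-cell-like features (18 of 19 rose) and of endoderm genes (25 of 31) reach farthest to the right, and those of pluripotency genes and replication-dependent histone genes reach left.

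Features of the 2-cell-like state, a rare state of stem cell cultures that resembles the 2-cell embryo and expresses the retrovirus MERVL, nearly all rose. Of 19 tested of 22, 18 rose and 1 was not called, with a median of 1.67. MERVL-int, the internal part of the retrovirus, was at 1415, 1299 and 1879 CPM at 24 h and 5004, 4665 and 4937 CPM at 60 h (log2 fold change 1.67 ± 0.12, adjusted p = 9.36e-07). Its long terminal repeat MT2_Mm went from 373 ± 92.6 to 1049 ± 111 CPM (1.5). Together they held 0.184, 0.167 and 0.250% of all counts at 24 h and 0.644, 0.599 and 0.651% at 60 h (exact two-sided permutation p = 0.1, the smallest that 3 against 3 can give). Zfp352, a retrogene of the 2-cell embryo, rose from 1.06 ± 0.507 to 4.61 ± 1.31 CPM (2.06), Zscan4b from 9.24 ± 2.40 to 37.1 ± 5.36 CPM (1.99), Tcstv3 from 0.823 ± 0.370 to 3.40 ± 0.883 CPM (1.97) and Usp17lc from 6.62 ± 0.862 to 29.2 ± 1.63 CPM (2.14). The Zscan4, Usp17l, Tcstv and Tdpoz genes are families of near-identical copies, so that the value of a single copy is uncertain and copies may not count as separate genes. Duxf3, the mouse Dux gene that switches this program on, was at 2.56, 1.94 and 2.87 CPM at 24 h and 4.17, 3.60 and 2.94 CPM at 60 h (log2 fold change 0.51 ± 0.20, adjusted p = 0.0539).

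The share of counts on repeats as a whole overlapped between the 24 and 60 h libraries, while most subfamilies lay slightly lower at 60 h. They held 7.74 ± 0.262% of the counts at 24 h and 7.36 ± 0.396% at 60 h, a difference of -0.378 percentage points (exact two-sided permutation p = 0.3). The share of LINE repeats was 1.04, 1.01 and 1.23% at 24 h and 0.888, 0.900 and 1.02% at 60 h (exact permutation p = 0.2), and that of LTR repeats was 1.78 ± 0.177% and 1.77 ± 0.0496%. Of 138 LINE subfamilies, 31 had a log2 fold change above 0 (median -0.14), 2 fell and 136 were not called. The first was L1Md_A, a young family that can still transpose, which fell from 2277 ± 298 to 1433 ± 108 CPM (-0.66), and the other was L1VL1 (-0.66), whose call was lost in at least 1 alternative. Of 520 LTR subfamilies, 158 had a log2 fold change above 0 (median -0.16), and 17 rose and 37 fell. These shares, 3.27% and 7.12%, are below the 15.4% and 9.93% of all tested features. Among the 4 largest falls were 2 subfamilies of early transposons. MMETn-int was at 3311, 2496 and 3862 CPM at 24 h and 639, 592 and 832 CPM at 60 h (log2 fold change -2.22 ± 0.16, adjusted p = 8.88e-07). ETnERV-int fell from 1049 ± 37.6 to 247 ± 23.4 CPM (-2.08), ERVB7_1-LTR_MM from 253 ± 18.4 to 50.2 ± 6.35 CPM (-2.33) and RLTR13G from 242 ± 41.1 to 58.3 ± 18.3 CPM (-2.04). Besides MERVL, the rises included RLTR6-int and MMVL30-int, which rose from 78.9 ± 15.0 to 239 ± 14.9 CPM (1.61) and 46.7 ± 8.78 to 133 ± 19.5 CPM (1.51). These values sum over all copies of a subfamily.

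Of the histone genes in the replication-dependent clusters, part fell and none rose. Among 67 tested, 30 fell and 37 were not called (median -0.57), and their share of all counts was 0.849, 0.775 and 0.773% at 24 h and 0.616, 0.586 and 0.544% at 60 h (exact two-sided permutation p = 0.1). Hist1h2bh, an H2B gene, was at 87.8, 69.9 and 80.2 CPM at 24 h and 36.1, 34.8 and 39.5 CPM at 60 h (log2 fold change -1.10 ± 0.10, adjusted p = 3.38e-06). Hist1h1t, the linker histone of the testis, fell from 5.44 ± 1.73 to 1.10 ± 0.177 CPM (-2.32), and the testis variants Hist1h2aa and Hist1h2ba from 20.9 ± 2.93 to 5.28 ± 0.713 CPM (-1.98) and 16.8 ± 2.07 to 5.59 ± 0.382 CPM (-1.59). These clusters hold near-identical copies, and reads may have been split among them. Of 10 replacement histone genes, which are made outside S phase, H1fx fell by 0.75 and 9 were not called (median -0.09).

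Among 41 cell cycle genes 5 rose and 4 fell (median -0.23). These shares, 12.2% and 9.76%, are near the 15.4% and 9.93% of all tested features, so that nothing is read from the counts. The risers were Ccnd2, a D-type cyclin, from 23.3 ± 1.83 to 80.6 ± 6.24 CPM (1.80), its kinase Cdk6 (0.88), and the inhibitor genes Cdkn2b (1.60), Cdkn2a (0.85) and Cdkn1c (0.62, lost in 4 alternatives). The helicase subunit genes Mcm3, Mcm4 and Mcm6 fell by 0.71, 0.67 and 0.66, and Pole2, a polymerase epsilon subunit, by 0.62, a call lost in at least 1 alternative. Of 30 p53 target and cell death genes, 12 rose and 18 were not called (median 0.38). They included Cdkn1a (p21), which was at 59.8, 60.7 and 54.6 CPM at 24 h and 143, 145 and 154 CPM at 60 h (log2 fold change 1.34 ± 0.08, adjusted p = 1.48e-07), without overlap. Bcl2 and Bcl2l1, which protect from apoptosis, rose by 1.60 and 1.17, and Plk2, Btg2 and Perp, p53 targets, by 1.28, 1.26 and 1.03. Trp53 itself was at -0.46 (adjusted p = 3.04e-04).

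Of 33 genes of DNA methylation and Polycomb, 5 rose and 3 fell (median -0.10). These shares, 15.2% and 9.09%, are close to the 15.4% and 9.93% of all tested features, so that nothing is read from the counts. The oxidase gene Tet3 rose from 34.7 ± 2.05 to 88 ± 6.03 CPM (1.35), and its relative Tet1, the form of stem cells, fell from 172 ± 7.80 to 74.2 ± 4.68 CPM (-1.2). Cbx8, a reader of H3K27me3, rose by 1.16, and the Polycomb genes Bmi1 and Pcgf5 by 1.07 and 0.87. The de novo methyltransferase gene Dnmt3a fell by 1.13 and Mtf2, an accessory subunit of PRC2, by 0.67. Ezh2, the PRC2 methyltransferase, was at -0.43 (adjusted p = 8.83e-04).

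Of 25 imprinted genes, 14 rose, 1 fell and 10 were not called (median 0.84). Peg3, expressed from the paternal allele, was at 152, 185 and 176 CPM at 24 h and 1246, 1245 and 1339.5 CPM at 60 h (log2 fold change 2.91 ± 0.10, adjusted p = 3.27e-09). Igf2 and H19, neighbours expressed from opposite parental alleles, rose from 64.5 ± 10.1 to 348 ± 35.3 CPM (2.44) and 689 ± 115 to 2772 ± 277 CPM (2.01). Peg10 rose by 1.88, Meg3 by 1.56 and Gnas by 1.38, and Snrpn fell by 0.88. No allele was distinguished in these counts.

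Of 25 hypoxia and glycolysis genes, 9 fell, 3 rose and 13 were not called (median -0.48). Ldha, lactate dehydrogenase, was at 813, 656 and 822 CPM at 24 h and 316, 302 and 313 CPM at 60 h (log2 fold change -1.29 ± 0.09, adjusted p = 7.08e-07). Pfkp, the platelet form of phosphofructokinase, fell by 1.97, Pgk1 by 1.04, Pdk1 by 0.88 and Bnip3 by 0.91. Pfkfb3, which raises the activator of phosphofructokinase, rose by 1.82 and Ndrg1 by 1.54. Of 27 genes of the mitochondrial genome, 3 fell and 2 rose (median -0.63). These shares are 11.1% and 7.41%, beside 9.93% fallen and 15.4% risen of all tested features. Differences between libraries were large: mt-Rnr1, a ribosomal RNA, was at 1595, 836 and 1193 CPM at 24 h and 124, 173 and 269 CPM at 60 h (log2 fold change -2.67 ± 0.27, adjusted p = 1.16e-05). mt-Nd6 rose by 0.91, and it lies on the strand opposite to mt-Nd5. Libraries were depleted of ribosomal RNA, and the part of that step in the values of mt-Rnr1 was not tested.

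Whether the late change in dPOLE4 MCM2-2A cells differed from that in other cells was tested as a difference of log2 fold changes, with the 12 libraries of both cell groups in the fit. All 3 such tests share the 6 libraries of the double mutant. Against Ctrl MCM2-2A cells, 5 features changed more upward in the double mutant and 1 more downward among 19602, which is 0.0255% and 0.0051%, with 1910 at an unadjusted p below 0.05. Against dPOLE4 cells, the counts were 659 (3.35%) and 480 (2.44%) of 19681. Against Ctrl cells, they were 754 (3.84%) and 745 (3.79%) of 19660. In their own late change, Ctrl MCM2-2A cells had 3381 features that rose and 2490 that fell, dPOLE4 cells 3311 and 2611, and Ctrl cells 3620 and 2908. Across features the log2 fold changes of the double mutant correlated with those of Ctrl MCM2-2A cells (Pearson r = 0.93 over 18183 features), dPOLE4 cells (0.81 over 17890) and Ctrl cells (0.80 over 17744), where features are not independent. Opposite calls were rare, 2, 34 and 49 features.

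**Figure D4:**
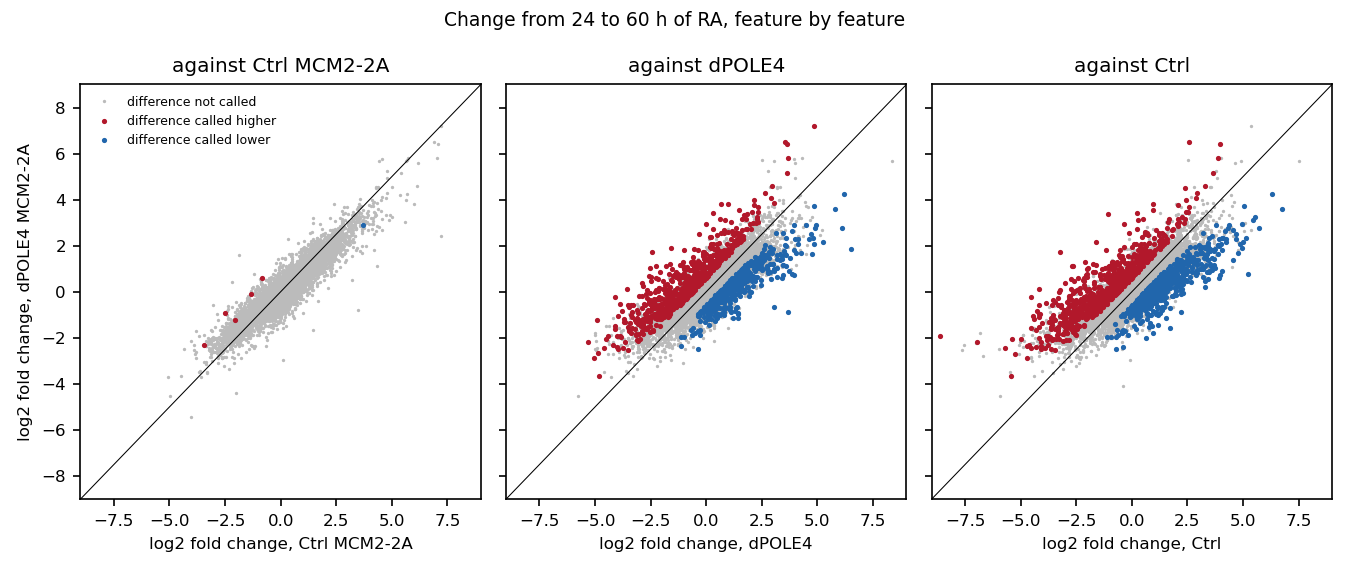
Log2 fold change from 24 to 60 h of RA of each feature tested in both cell groups, in dPOLE4 MCM2-2A cells (vertical axis) against Ctrl MCM2-2A, dPOLE4 or Ctrl cells (horizontal axis, 1 panel each), with a line where both are equal. Red and blue points are features whose difference was called higher or lower in the double mutant. The coloured points of the first panel are the 6 called features, and those of the other panels form bands on both sides of the line.

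For features chosen by their change in dPOLE4 cells, the median change was smaller in size in the double mutant. Of the 3311 features that rose in dPOLE4 cells (17.9% of those tested there), the median log2 fold change was 1.17 in dPOLE4, 1.2 in Ctrl, 1.03 in Ctrl MCM2-2A and 0.89 in dPOLE4 MCM2-2A cells. Of the 2611 that fell in dPOLE4 cells (14.1%), it was -1.14, -1.12, -0.83 and -0.70. The dPOLE4 values chose the features and are given as a description. Ctrl cells are of the same line as dPOLE4 cells, so that this choice may also favour larger changes there. The order of the cell groups is therefore a description too. Among the 659 features more upward in the double mutant than in dPOLE4 cells, 221 fell in dPOLE4 cells and had no call in the double mutant, 138 fell in both, 130 rose in the double mutant without a call in dPOLE4 cells, and 89 rose in both. Among the 480 more downward, 204 rose in dPOLE4 cells and had no call in the double mutant, 137 rose in both, and 59 fell in the double mutant without a call in dPOLE4 cells.

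The 6 genes that differed from Ctrl MCM2-2A cells were Pou3f1, Cdkn1c, Phlda2, Tdgf1, Mylpf and Peg3. Pou3f1 was at 8.80, 10.7 and 8.35 CPM at 24 h and 5.27, 5.03 and 4.42 CPM at 60 h in the double mutant, and at 16.9, 20.1 and 15.9 CPM at 24 h and 3.35, 2.79 and 3.25 CPM at 60 h in Ctrl MCM2-2A cells (difference of log2 fold changes 1.61 ± 0.20, adjusted p = 0.00177). Every library of the double mutant was lower at 24 h and higher at 60 h than those of Ctrl MCM2-2A cells. Cdkn1c, an imprinted inhibitor of the cell cycle, was at 15.2, 21.9 and 17.7 CPM at 24 h and 27.8, 31.2 and 24.3 CPM at 60 h in the double mutant, and at 25.2, 27.9 and 24.2 CPM at 24 h and 14.1, 15.6 and 13.6 CPM at 60 h in Ctrl MCM2-2A cells (1.46 ± 0.18, adjusted p = 0.00177). It went up in one and down in the other. Phlda2, an imprinted gene that lies next to Cdkn1c on chromosome 7 (chr7:143501545-143503150) and restrains placental growth, was at 23.4, 20.3 and 23.9 CPM at 24 h and 19.6, 23.2 and 20.9 CPM at 60 h in the double mutant, and at 27.4, 23.3 and 22.2 CPM at 24 h and 8.47, 10.4 and 9.39 CPM at 60 h in the other (1.28 ± 0.15, adjusted p = 0.00177). Its groups overlapped in the double mutant, without a call, whereas it fell in Ctrl MCM2-2A cells. Tdgf1 went from 153 to 31.1 CPM in the double mutant and from 177 to 16.1 CPM in Ctrl MCM2-2A cells (1.18 ± 0.16, adjusted p = 0.00365). Mylpf, a myosin light chain gene, went from 53.4 to 22.7 CPM and from 50.7 to 12 CPM (0.85 ± 0.11, adjusted p = 0.00365). Peg3 rose in both, from 171 to 1277 CPM and from 154 to 2001 CPM (-0.79 ± 0.11, adjusted p = 0.00508). All 6 calls were lost without replicate 2 of 24 h or replicate 3 of 60 h of Ctrl MCM2-2A cells, and over all 12 libraries left out in turn the highest adjusted p was 0.0137 for the first 3 genes and 0.0288 for the others.

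Naive genes differed from both cell groups with normal Mcm2. Of the 13, 11 changed more upward in the double mutant than in dPOLE4 cells and 11 than in Ctrl cells, against 3.35% and 3.84% of all features. The study chose these 13 with these samples in hand, so that the counts are no independent evidence of a difference. Against Ctrl MCM2-2A cells edgeR called 0 and DESeq2 1, with 6 at an unadjusted p below 0.05. Their median log2 fold change was -0.93 in the double mutant, -1.11 in Ctrl MCM2-2A, -1.84 in dPOLE4 and -2.02 in Ctrl cells. Mean Pou5f1 was 925, 658, 448 and 154 CPM at 0, 12, 24 and 60 h of RA in the double mutant, where the last value was 99.6, 34.8 and 29.9 CPM in Ctrl MCM2-2A, dPOLE4 and Ctrl cells. Nanog was at 108 CPM at 60 h in the double mutant against 79.9, 25.2 and 19.3, and Klf4 at 66.7 against 52, 28.1 and 26.9. Of the 26 other pluripotency genes, 15 changed more upward and 1 more downward than in dPOLE4 cells, and 16 and 1 than in Ctrl cells. edgeR called Tdgf1 alone of these against Ctrl MCM2-2A cells, where 12 of the 26 had an unadjusted p below 0.05 and DESeq2 called 5 higher and 1 lower.

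**Figure D5:**
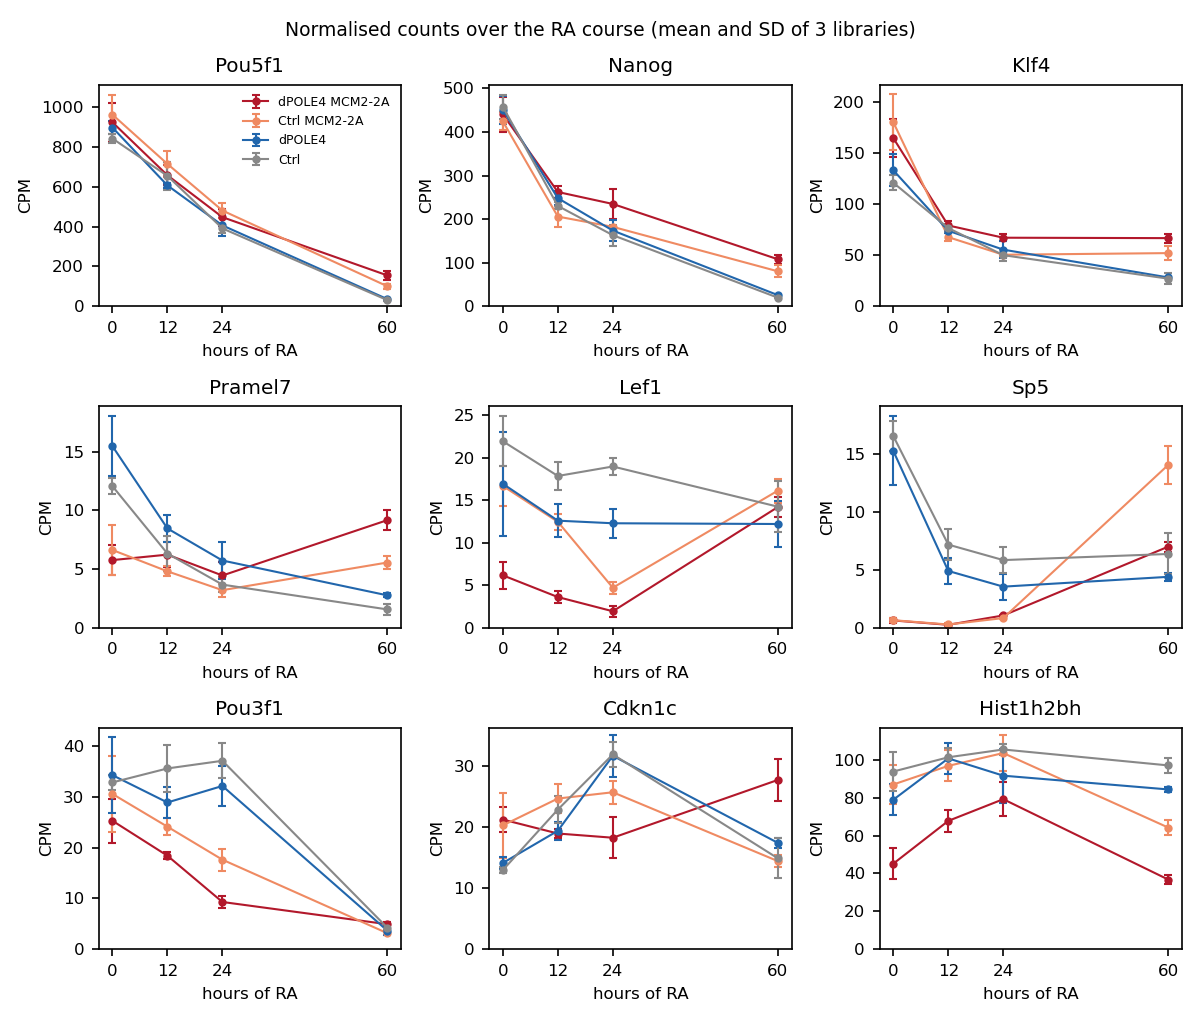
Mean normalised counts (CPM, bars are SD, 3 libraries each) of 9 genes at 0, 12, 24 and 60 h of RA in dPOLE4 MCM2-2A (red), Ctrl MCM2-2A (orange), dPOLE4 (blue) and Ctrl cells (grey). At 60 h, Pou5f1, Nanog, Klf4 and Pramel7 have their highest mean in the double mutant, Lef1 is lowest there at 24 h and lies among the other groups at 60 h, and Hist1h2bh is lowest in the double mutant at all 4 times.

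Lef1 and Sp5 had lower means at 24 h in the double mutant than in the cells with normal Mcm2. Lef1 went from 1.92 to 14.2 CPM in the double mutant, from 4.69 to 16.1 in Ctrl MCM2-2A, from 12.3 to 12.2 in dPOLE4 and from 19 to 14.2 in Ctrl cells, and its change was called higher than in the last 2. Sp5 went from 1.05 to 6.99 CPM, against 0.822 to 14, 3.53 to 4.38 and 5.83 to 6.35, with the same calls. Of the 47 signalling genes tested for a difference, 13 changed more upward and 3 more downward than in dPOLE4 cells, and 16 and 5 than in Ctrl cells. Over all features the upward and downward shares were 3.35% and 2.44% against dPOLE4 cells, and 3.84% and 3.79% against Ctrl cells. Of 9 formative genes, 5 changed more upward than in dPOLE4 cells, and 4 more upward and 1 more downward than in Ctrl cells. All but Zic5 come from a set that the study showed with these samples, and are no independent evidence either.

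Of the 67 replication-dependent histone genes, 18 changed more downward in the double mutant than in dPOLE4 cells and 32 than in Ctrl cells, against 2.44% and 3.79% of all features. Their medians were -0.57 in the double mutant, -0.43 in Ctrl MCM2-2A, -0.05 in dPOLE4 and 0.08 in Ctrl cells. Against Ctrl MCM2-2A cells neither edgeR nor DESeq2 called any. In edgeR's test 6 of the 67 had an unadjusted p below 0.05, beside 1910 of 19602 features, so that nothing is read from this count. Hist1h2bh went from 79.3 to 36.8 CPM in the double mutant, and from 104 to 64.3, 91.8 to 84.5 and 106 to 97.2 in Ctrl MCM2-2A, dPOLE4 and Ctrl cells. Of 10 replacement histone genes, 3 changed more downward than in Ctrl cells.

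The log2 fold change of 2-cell-like features was smaller in the double mutant than in the cells with normal Mcm2 for part of the list. Of 19, 4 changed more downward than in dPOLE4 cells and 8 than in Ctrl cells, among them Usp17la, Usp17lb, Usp17le and Duxf3 against both. Of all features, 2.44% and 3.79% did so. The medians were 1.67 in the double mutant, 1.58 in Ctrl MCM2-2A, 2.66 in dPOLE4 and 3.04 in Ctrl cells. A smaller change is not a lower level at 60 h. MERVL-int plus MT2_Mm held 0.184, 0.167 and 0.250% of counts at 24 h and 0.644, 0.599 and 0.651% at 60 h in the double mutant. In dPOLE4 cells the values were 0.185, 0.0942 and 0.148%, then 0.646, 0.537 and 0.567%. In Ctrl cells they were 0.181, 0.114 and 0.143%, then 0.646, 0.606 and 0.538%. In Ctrl MCM2-2A cells they were 0.154, 0.126 and 0.191%, then 0.576, 0.414 and 0.407%, the 60 h values all lying below those of the double mutant. Of the LTR subfamilies tested for a difference, 22 of 534 changed more upward than in dPOLE4 cells (4.12%) and 45 of 537 than in Ctrl cells (8.38%), with 3 more downward in each. Over all features the upward shares were 3.35% and 3.84%, so that the first is close to that of all features. In Ctrl cells 193 of 511 LTR subfamilies fell (median -0.60), and in dPOLE4 cells 123 of 513 (-0.36), where 15.9% and 14.1% of all tested features fell. Of 134 LINE subfamilies tested in Ctrl cells, 44 fell (median -0.53). In the double mutant 3 of 140 (2.14%) changed more upward than there, which is below the 3.84% of all features.

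Hox genes differed in both directions. Of 35, 3 changed more upward and 9 more downward in the double mutant than in dPOLE4 cells, and 4 and 7 than in Ctrl cells. Over all features these shares were 3.35% and 2.44%, then 3.84% and 3.79%. The more downward ones included Hoxc4, Hoxc5, Hoxc6 and Hoxc8 against both, and the median of the Hoxc genes was 1.67 in the double mutant, 2.22 in Ctrl MCM2-2A, 2.97 in dPOLE4 and 3.14 in Ctrl cells. For Hoxd genes the order was different, with 2.51, 2.92, 1.25 and 1.47. These medians are over unlike genes, as Hoxd11 entered only the first and Hoxd3 did not enter that of dPOLE4 cells. No Hoxd gene except Hoxd9 had a called difference. Hoxd9 went from 0.778 to 4.44 CPM in the double mutant and from 1.23 to 0.959 in dPOLE4 cells, and its change was called higher than in both cell groups with normal Mcm2. Against Ctrl MCM2-2A cells neither edgeR nor DESeq2 called a Hox gene, and 10 had an unadjusted p below 0.05.

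Among the other lists, counts stand beside those of all features, of which 3.35% changed more upward and 2.44% more downward than in dPOLE4 cells, and 3.84% and 3.79% than in Ctrl cells. Of neural genes, 9 of 40 changed more upward and 3 more downward than in dPOLE4 cells, and 8 and 3 of 41 than in Ctrl cells. For mesoderm genes the counts were 8 and 2 of 25 against dPOLE4 cells and 6 and 4 of 25 against Ctrl cells. Endoderm genes gave 6 and 4 of 33, then 5 and 5 of 33. Adhesion genes gave 5 and 1 of 25, then 7 and 3 of 25, and imprinted genes 3 and 6 of 25, then 4 and 6 of 25. Of surface ectoderm and trophoblast genes, 3 of 18 and 3 of 19 were called higher and 0 lower. The liver and yolk sac genes Afp and Apoa1 were among the 5 largest downward differences against each. Afp, the fetal serum protein, went from 0.133 to 0.398 CPM in the double mutant, from 0.157 to 7.77 CPM in dPOLE4 cells and from 0.0570 to 11.4 CPM in Ctrl cells. Apoa1 went from 0.212 to 0.288 CPM in the double mutant, from 0.122 to 3.02 CPM in dPOLE4 cells and from 0.127 to 2.72 CPM in Ctrl cells. Both stayed below 1 CPM in the double mutant, while Sox17 and Lama1 rose as given above. Neither Afp nor Apoa1 was among the 6 genes called against Ctrl MCM2-2A cells, so that their low level is not shown to be particular to the double mutant. The remaining lists had few calls, and nothing is read from counts this small. Of 24 RA genes, 1 was called higher and 2 lower against dPOLE4 cells, and 1 and 4 against Ctrl cells. Of 41 cell cycle genes, 4 were called higher and 0 lower, then 5 and 2. Of 25 hypoxia and glycolysis genes, 3 and 3 were called, then 3 and 2, and of 17 Notch genes 2 and 1, then 1 and 1. Of 33 DNA methylation and Polycomb genes, 3 were called higher against each and 0 lower, and of 30 p53 target and cell death genes 1 and 2 were called higher. Of 11 TALE genes 1 was lower against each, of 5 early RA genes 2 were higher against each, and of the 28 and 27 mitochondrial genes tested 0 were called. Against Ctrl MCM2-2A cells, DESeq2 called 4 endoderm genes lower and 4 formative genes higher, where edgeR called 0 endoderm genes (17 of 32 at an unadjusted p below 0.05) and Pou3f1.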

How the data were processed

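The 6 libraries of dPOLE4 MCM2-2A cells at 24 and 60 h of RA were analysed with those of the other cell groups at the same times, from strand-specific libraries of rRNA-depleted total RNA in 3 biological replicates. The deposited values are counts of reads per gene and repeat subfamily, which the authors made by trimming with cutadapt 4.2, mapping to mm10 with STAR, with multiply mapped reads retained, and by counting reads with TEcount against GENCODE M25 and repeats. They were neither normalized nor pooled. The strand setting of the counting is not given in the sources used here, so that a gene and its antisense partner may share reads. The labels' treatment text names a 48 h time where titles and methods give 12 h, and titles were used.

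The tests used edgeR 4.0.16 under R 4.3.3: filterByExpr (minimum count 10, minimum total 15), TMM factors over genes and repeats, and the quasi-likelihood test with Benjamini-Hochberg adjustment over all features tested, called at an adjusted p below 0.01 and a log2 fold change larger in size than 0.58. The study used DESeq2 with these thresholds, and DESeq2 1.42.0 was an alternative here. Log2 fold changes are given with their standard error. Differences between cell groups were tested as an interaction of cell group and time. Shares of counts were compared by exact two-sided permutation. Gene symbols and positions came from GENCODE M21, an mm10 annotation, and 346 gene IDs had no symbol there. Repeats were put into classes by name, which gave a smaller LTR class than that of the study. The procedure was tested on simulated counts. Library totals ranged from 10461077 to 46609151 counts over the 48 samples of the RA series.

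Named genes are the 10 largest changes in each direction among called features without overlap and with at least 1 CPM in the higher group, up to 6 called members of each list in each direction, list members with a called difference or without a call, the 5 largest differences in each direction, fixed markers, Pole4 and Mcm2. MT2_Mm, Duxf3 and the gene panels of the plots were picked from these lists after their values were seen. Some genes that the rule names are not reported here. The lists and the comparison were chosen with earlier results of these data known. Alternatives were DESeq2, other size factors, other filters, a replicate block, all 48 libraries in the fit, robust estimation, other call rules, and each library left out in turn.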

Additional observations from a re-analysis of the deposited data

Results flagged for a closer look

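The late change differed between cell groups, by a test of the difference itself, for 5 features more upward and 1 more downward in the double mutant than in Ctrl MCM2-2A cells, for 659 and 480 against dPOLE4 cells, and for 754 and 745 against Ctrl cells. The genes behind the first pair, with differences of log2 fold changes (double mutant minus Ctrl MCM2-2A), were Pou3f1 (1.61), Cdkn1c (1.46), Phlda2 (1.28), Tdgf1 (1.18), Mylpf (0.85) and Peg3 (-0.79).

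The 5 largest upward differences against dPOLE4 cells were those of Gm5907 (6.96), Htr5a (6.29), Mmp20 (6.17), Pcdh11x (4.82) and Cdx4 (4.18). Gm5907 went from 0.300 to 0.995 CPM and the serotonin receptor gene Htr5a from 0.887 to 2.56 CPM in the double mutant, and both were at 0 counts in the 3 libraries of dPOLE4 cells at 60 h, at least 3.98-fold and 2.92-fold lower than at 24 h against a floor of 3 counts over the group. Mmp20, an enzyme of tooth enamel, was likewise at 0 there, at least 19.9-fold lower, and went from 0.376 to 0.153 CPM in the double mutant. Fitted differences of such genes depend on the prior count and are no bounds. Cdx4, a posterior homeobox gene, had 68 counts at 24 h and 1 at 60 h in dPOLE4 cells, a ratio of 54.1 (9.40 to 2169.6) with its 95% counting interval, and went from 0.380 to 0.167 CPM in the double mutant. Pcdh11x went from 0.0753 to 0.840 CPM in the double mutant and from 0.524 to 0.181 CPM in dPOLE4 cells.

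The 5 largest downward differences against dPOLE4 cells were those of ENSMUSG00000096728 (-4.66), the fibrinogen gene Fgg (-4.55), Afp (-4.15), Apoa1 (-4.02) and A230077H06Rik (-3.75). ENSMUSG00000096728 had 1 count at 24 h and 101 at 60 h in dPOLE4 cells, a ratio of 127 (22.3 to 5059), and went from 0.419 to 1.71 CPM in the double mutant. Fgg went from 0.705 to 0.386 CPM in the double mutant and from 0.0619 to 0.791 CPM in dPOLE4 cells. A230077H06Rik went from 0.426 to 0.333 CPM and from 0.0969 to 0.920 CPM.

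Against Ctrl cells, the 5 largest upward differences were those of Mir124a-1hg (6.74), the host gene of a neuronal microRNA, Gm47725 (6.66), Hoxa11os (6.33), Serpinb9g (5.90) and Msc (4.96). The first 3 were at 0 counts in Ctrl cells at 60 h, at least 33.8-fold, 12.5-fold and 1.67-fold lower than at 24 h. In the double mutant Mir124a-1hg went from 5.43 to 1.42 CPM, Gm47725 from 0.42 to 0.254 CPM and Hoxa11os, which lies antisense to Hoxa11, from 0.184 to 0.650 CPM. Serpinb9g had 2 counts at 24 h and 50 at 60 h in the double mutant, a ratio of 27.3 (7.18 to 232), and went from 0.304 to 0.0899 CPM in Ctrl cells. Msc, a factor of muscle precursors, went from 0.265 to 0.919 CPM in the double mutant and from 1.82 to 0.160 CPM in Ctrl cells. The 5 largest downward differences were those of Afp (-6.15), Daam2 (-4.45), Kcnk16 (-3.94), Apoa1 (-3.79) and Ramp1 (-3.57). Daam2, a formin that acts in Wnt signalling, went from 0.662 to 1.10 CPM in the double mutant and from 0.235 to 8.33 CPM in Ctrl cells. The potassium channel gene Kcnk16 went from 0.131 to 0.0854 CPM and from 0.0856 to 0.882 CPM. Ramp1 went from 0.240 to 0.458 CPM in the double mutant, and had 2 counts at 24 h and 27 at 60 h in Ctrl cells, a ratio of 26.9 (6.77 to 234). No cause of these differences was tested.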

How the results depend on the processing

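Tested against a 1.5-fold change (glmTreat), 1481 features rose and 702 fell from 24 to 60 h, 206 and 85 changed more upward and more downward than in dPOLE4 cells, 232 and 148 than in Ctrl cells, and 0 and 0 than in Ctrl MCM2-2A cells. Without a fold change threshold 2856 features fell. The small counts against Ctrl MCM2-2A cells depended on the setting most, and the cause was not tested: they were 37 higher and 33 lower with DESeq2, 73 and 71 without a filter, 11 and 6 with the replicate block, and 27 and 17 with all 48 libraries in the fit, with 3 lower under robust estimation. With 1 library left out they lay between 0 and 19 higher and 0 and 7 lower, the highest of both without replicate 3 of 60 h of the double mutant. The 6 genes called there stayed called in the other 8 settings besides glmTreat and the left-out libraries. Leaving out 1 library gave 2478 to 2887 features that rose and 1526 to 2017 that fell, 485 to 704 and 337 to 518 in the difference from dPOLE4 cells, and 580 to 779 and 547 to 729 in that from Ctrl cells.

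Same-numbered libraries of 24 and 60 h correlated in their deviations from the group mean with r of -0.04, 0.18 and 0.27. Libraries with different numbers lay between -0.31 and 0.18. Whether the numbers pair the samples was not settled by these values. With the replicate block 2967 features rose and 2024 fell, the differences were 758 and 603 from dPOLE4 and 812 and 815 from Ctrl cells, and replicate 1 of 24 h correlated best with replicate 3 of 60 h (0.10).

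Of 183 named changes, 16 lost their call under at least 1 counted alternative, and of 26 named differences 22 did. All kept their sign. This covers 2521 and 500 pairs of a named result and an alternative, which is not every pair. Features with a library under 10 counts are not tested with the filter of 10 counts in every library. Of all 4735 called changes, 3982 stayed called with that filter and 2183 under glmTreat. The medians of gene lists moved by more than the replicate SD in 17 cases. The difference in the share of repeats lay between -0.52 and -0.15 percentage points with 1 library left out, and was -0.48 outside the mitochondrial genome.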
